A study of Mus musculus with 3 samples.

Results

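Activated neutrophils of mouse bone marrow carrying Il1b or Cxcl2 transcripts were rare in the unchallenged library and frequent in both libraries from mice challenged with Escherichia coli. They were chosen by their measured counts of Il1b, Cxcl2 and 7 other transcripts. Il1b encodes the secreted inflammatory cytokine interleukin 1 beta, and Cxcl2 encodes a chemokine that attracts neutrophils. A cell was taken as an activated neutrophil when it held at least 3 unique molecular identifiers (UMIs, each counting 1 captured transcript) of Il1b and Cxcl2 together and at least 40000 UMIs of S100a8 and S100a9 per 1000000 of its own UMIs. It also had to hold under 2000 UMIs of Elane per 1000000, at most 2 UMIs of Mcpt8 and at most 2 UMIs of C1qa, C1qb and C1qc together. S100a8 and S100a9 encode the calprotectin subunits of neutrophils, Elane the elastase of promyelocytes, Mcpt8 a basophil protease and the C1q genes a macrophage product. These criteria were met by 601 of the 26415 cells kept. They are themselves transcript counts, so the levels of these genes in the cells are descriptions of the choice and not findings.

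Neutrophils mature in the marrow in steps that are marked by the granule proteins being made. Promyelocytes make the azurophil proteins such as elastase, myelocytes and metamyelocytes make the specific granule proteins such as Camp, Ngp and Ltf, and band and segmented cells make gelatinase granule proteins and the receptors used in the blood and tissues, among them Cxcr2 and Csf3r. Bacterial products and cytokines act on mature neutrophils through NF-kB, AP-1 and C/EBP factors, and Il1b and Cxcl2 are textbook targets of that signalling.

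Marrow of C57BL/6 mice had been enriched for cells with Kit, a receptor of stem and progenitor cells, before sequencing with version 2 of the 3 prime kit of 10x Genomics. The unchallenged library was labelled steady state, the challenged once library 1 E. coli challenge and 24 h, and the rechallenged library, which the plots name by its label, 2 E. coli challenges and 48 h. No allele, age, dose, route or pooling of animals was stated in the labels, nor the moment from which the hours count. The number of challenges, the labelled hours and the library differ together and cannot be told apart.

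There was 1 library in each group, so no test across samples was possible, no standard deviation or p-value is given, and all differences are values set side by side. Levels are UMIs summed over the cells of a population and given per 1000000 UMIs of the same population (CPM). Intervals in parentheses are 95% intervals, exact Poisson for levels and exact Clopper-Pearson for shares, and they cover counting error only. The tables held 9684, 9060 and 8923 barcodes in the order unchallenged, challenged once and rechallenged, with 119646078, 135079828 and 95522747 UMIs. Of these barcodes, 9223, 8650 and 8542 were kept, with medians of 11200, 13480 and 10500 UMIs per cell. Between 103 and 125 barcodes were shared between any pair of libraries, and 0 of them belonged to activated neutrophils in both. Activated neutrophils were shallow cells, with medians of 3928, 2453 and 2056 UMIs per cell, and their summed UMIs came to 50116, 603092 and 1018418.

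The unchallenged library held 11 activated neutrophils among its kept cells, a share of 0.119% (0.0596 to 0.213%). In the challenged once library there were 215, a share of 2.49% (2.17 to 2.84%). The rechallenged library held 375, a share of 4.39% (3.97 to 4.85%). In these 3 libraries the order unchallenged, challenged once, rechallenged was the order of increasing share. The intervals cover the counting error of each library and not differences between animals, which were not measured. Over the S100-high cells alone, meaning the cells that met every criterion other than the Il1b and Cxcl2 count, the shares were 0.272% (0.136 to 0.486%) of 4042 cells, 14.8% (13.02 to 16.7%) of 1452 cells and 20.2% (18.4 to 22.1%) of 1859 cells. S100-high cells were 43.8% of kept cells in the unchallenged library, 16.8% in the challenged once library and 21.8% in the rechallenged library, and the Kit enrichment can set these shares. The threshold of 3 UMIs cut through a continuous distribution: 6, 25 and 54 S100-high cells of the 3 libraries held exactly 2 UMIs and lay just outside, while 5, 28 and 38 held exactly 3 and lay just inside. After each cell was thinned to 1000 UMIs, 3, 114 and 225 cells met the criteria.

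**Figure D1:**
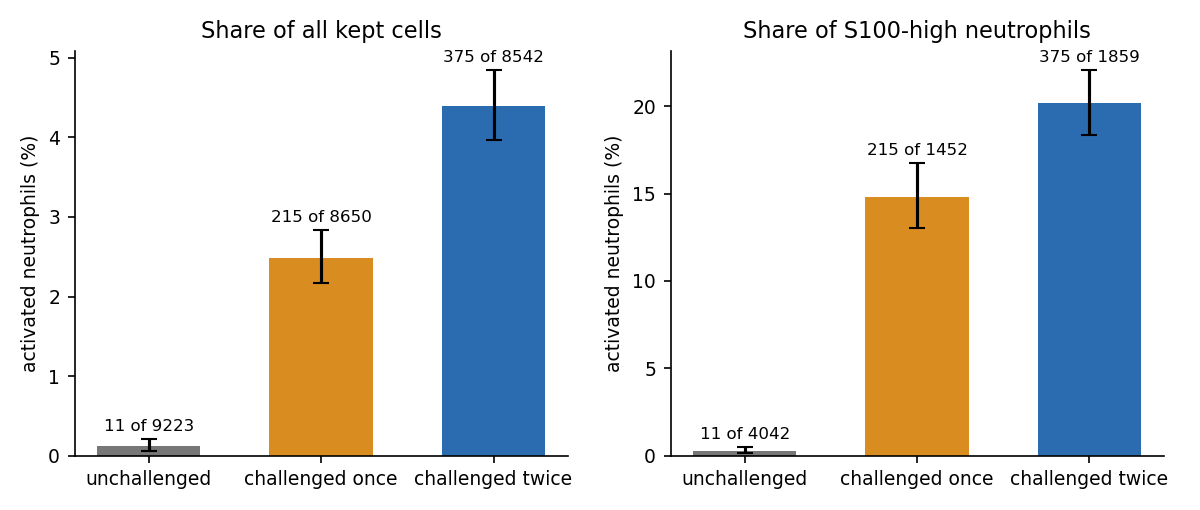
Activated neutrophils as a percent of all kept cells (left) and of S100-high cells (right) in each library, with bars for the share, whiskers for its exact 95% interval and the counts above each bar. The shares of kept cells were 0.119%, 2.49% and 4.39%, and both challenged libraries stand above the unchallenged one in each panel.

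Transcripts released into the droplets can give UMIs in cells that do not make them, so the same counts were taken in globin-rich cells, in which neither cytokine gene should be active. A UMI of Il1b or Cxcl2 was present in 2 of 51 (3.92%), 1 of 36 (2.78%) and 1 of 40 (2.50%) globin-rich cells, whose median depths of 15820, 8355 and 6747 UMIs were higher than those of the activated neutrophils. The count of 3 UMIs was reached by 0 of them in each library, which allows shares of up to 5.88%, 8.33% and 7.50%, taken as 3 cells of the total. Immature neutrophils below the threshold held at least 1 UMI in 1.62%, 4.01% and 6.12% of cells. Of all kept cells with at least 3 UMIs, 13, 30 and 62 failed on S100a8 and S100a9, 2, 14 and 20 on Elane, 0, 0 and 8 on Mcpt8 and 0, 6 and 1 on C1q, where a cell can fail on several criteria.

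Within the activated neutrophils, the cytokine and the chemokine were found together in most cells of the challenged libraries. Both transcripts had at least 1 UMI in 2 of 11 unchallenged cells (18.2%), in 147 of 215 challenged once cells (68.4%) and in 277 of 375 rechallenged cells (73.9%). Per cell, Il1b had a median of 0, 3 and 4 UMIs and a highest value of 7, 32 and 18, and Cxcl2 had a median of 3, 4 and 4 and a highest value of 6, 35 and 40. Cells with at least 3 UMIs of Cxcl2 but fewer of Il1b numbered 8, 84 and 82. In the challenged once library these were 39.1% (32.5 to 45.9%) of the activated cells, and in the rechallenged library 21.9% (17.8 to 26.4%). Cells with at least 3 UMIs of both were 30.2% (24.2 to 36.9%) and 42.1% (37.1 to 47.3%), and cells with at least 3 of Il1b alone 25.6% (19.9 to 31.96%) and 31.2% (26.5 to 36.2%). This split uses the counts that chose the cells and describes these libraries only, and the median depth was 2056 UMIs in the rechallenged and 2453 in the challenged once cells. Summed over the cells, Il1b reached 359 CPM (213 to 568), 1424 CPM (1331 to 1523) and 1718 CPM (1639 to 1801), and Cxcl2 698 CPM (486 to 971), 2134 CPM (2019 to 2254) and 1779 CPM (1698 to 1863). The criterion of 3 UMIs sets the lower end of these levels.

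**Figure D2:**
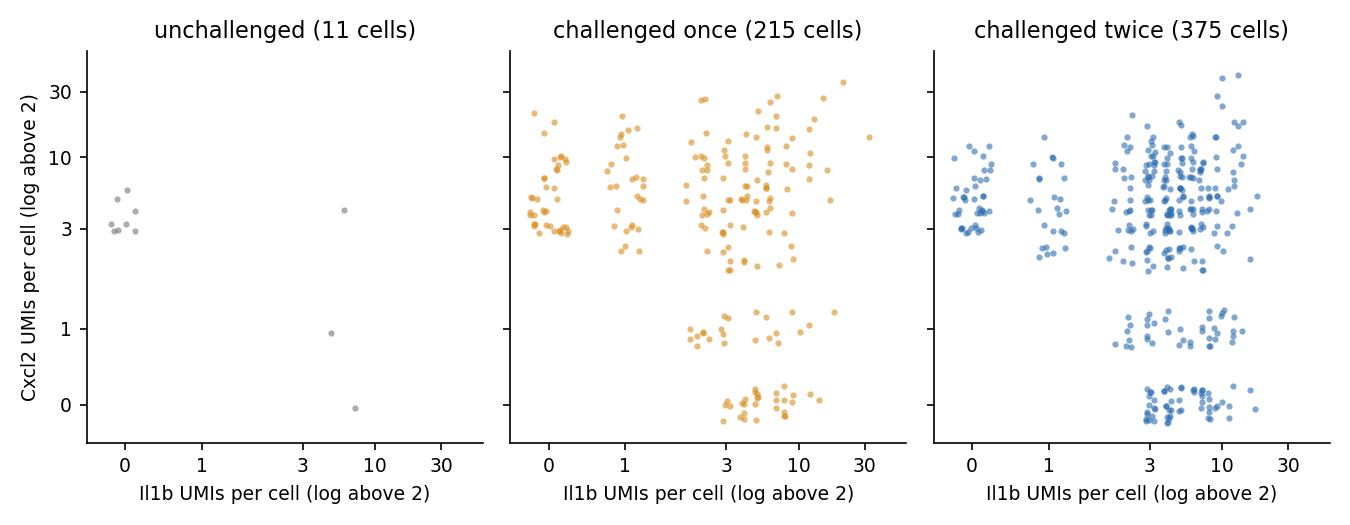
Il1b UMIs (horizontal axis) and Cxcl2 UMIs (vertical axis) in each activated neutrophil, 1 point per cell and 1 panel per library, on axes that are linear up to 2 UMIs and logarithmic above, with small random displacements so that cells with equal counts can be seen. Cells with a UMI of both made up 18.2%, 68.4% and 73.9% of the points from left to right.

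The promoter stretches of 3 genes read as markers of NF-kB and C/EBP signalling in neutrophils are shown. They are those of Cxcl2 and Il1b, which define the cells, and that of Nfkbia, which encodes the inhibitor that NF-kB itself induces. More stretches were searched, and these 3 were picked with the matches known. Each is the 150 bases before the RefSeq transcription start, read 5′ to 3′ on the gene's own strand from the RefSeq promoter table of GRCm38.p6, at chr5:90903749-90903898 (plus strand), chr2:129371140-129371289 (minus strand) and chr12:55492648-55492797 (minus strand). Capitals mark matches to the NF-kB consensus in Cxcl2 and Nfkbia and to the C/EBP core TTNNGNAA in Il1b, searched on both strands.
Cxcl2: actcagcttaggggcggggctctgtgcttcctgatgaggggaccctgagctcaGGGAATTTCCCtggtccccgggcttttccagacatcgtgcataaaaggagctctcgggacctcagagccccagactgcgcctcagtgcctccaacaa
Il1b: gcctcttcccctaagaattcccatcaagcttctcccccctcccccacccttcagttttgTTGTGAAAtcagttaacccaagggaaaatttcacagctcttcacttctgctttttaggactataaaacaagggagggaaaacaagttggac
Nfkbia: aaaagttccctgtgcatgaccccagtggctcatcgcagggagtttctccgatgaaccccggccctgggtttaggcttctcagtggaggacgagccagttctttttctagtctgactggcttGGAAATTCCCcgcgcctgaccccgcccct
The Cxcl2 stretch held a pair of overlapping NF-kB matches, at 97 to 88 and 96 to 87 bases before the start. The Nfkbia match lay at 29 to 20 bases before its start. The Il1b stretch held 1 C/EBP core match at 91 to 84 bases before the start. The AP-1 consensus TGANTCA matched in none of the 3. The stretches of Wfdc17, Ccl6 and Csf3r were searched too and are not shown. That of Wfdc17 held C/EBP core matches at 122 to 115 and at 81 to 74 bases before its start. Those of Ccl6 and Csf3r held no match to any of these patterns. Over 32851 promoters of the same 150 bases, 2.38% held the NF-kB consensus, 22.7% the C/EBP core and 4.24% the AP-1 consensus. A match describes the letters only.

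In the gene annotation of GRCm38, Il1b lies on chromosome 2 from 129364570 to 129371139 on the minus strand and Cxcl2 on chromosome 5 from 90903871 to 90905938 on the plus strand, so its annotated start lies before the RefSeq start used for the stretch above. Wfdc17 lies on chromosome 11 from 83703991 to 83706268 on the plus strand, Ccl6 on chromosome 11 from 83587882 to 83593087 on the minus strand, and Csf3r on chromosome 4 from 126024550 to 126044440 on the plus strand. All 5 are protein-coding genes.

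The label of activated neutrophils was compared with Wfdc17, Ccl6 and Csf3r, which the criteria did not use. These genes were chosen with earlier results of these data known. Wfdc17 encodes a small secreted protein with a whey acidic protein domain. It stood at 379 CPM (228 to 592) in the unchallenged cells, 25620 CPM (25220 to 26030) in the challenged once cells and 20300 CPM (20020 to 20580) in the rechallenged cells. It was detected in 4 of 11, 213 of 215 and 365 of 375 cells, and in the challenged libraries it had the largest ratio over all other kept cells among genes with at least 100 UMIs, where it stood at 109 and 115 CPM. Ccl6, a CC chemokine of myeloid cells, stood at 439 CPM (275 to 665), 2479 CPM (2355 to 2608) and 2249 CPM (2157 to 2343) and was detected in 9, 185 and 327 cells. Csf3r, the receptor of the granulocyte growth factor G-CSF, stood at 200 CPM (95.7 to 367), 645 CPM (583 to 712) and 757 CPM (705 to 812) and was detected in 6, 170 and 306 cells. All 3 were therefore higher in the activated cells of the challenged libraries. They did not bear out the name in the 11 unchallenged cells, where it rests on the Il1b and Cxcl2 count alone. Retnlg, a secreted protein of late neutrophils, did not follow this order, with 21170, 20920 and 22870 CPM and intervals of 19920 to 22480, 20560 to 21290 and 22580 to 23170.

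Late neutrophils below the threshold also carried high Wfdc17 in the challenged libraries. They are the S100-high cells with at most 2 UMIs of Il1b and Cxcl2 and under 10000 UMIs of Camp and Ngp per 1000000, and they numbered 16, 90 and 112. In them Wfdc17 stood at 70.0 CPM (36.2 to 122), 15200 CPM (14790 to 15620) and 12920 CPM (12520 to 13320). In the immature neutrophils outside the criteria, with Camp and Ngp at or above that value, Wfdc17 stood at 5.86, 61.4 and 56.3 CPM. High Wfdc17 was thus shared by activated and other late neutrophils of the challenged libraries, as the plot of levels by population shows. Among S100-high cells with low Camp and Ngp, 205 of 295 (69.5%, 63.9 to 74.7%) were activated in the challenged once library and 350 of 462 (75.8%, 71.6 to 79.6%) in the rechallenged library. In the unchallenged library 0 of 16 were, which allows a share of up to 18.8%, again as 3 cells of the total. Those 16 cells stood apart from the late cells of the challenged libraries: 7 of 16 (43.8%) carried the mark of the doublet caller Scrublet, their B lineage markers summed to 1347 CPM, and their neutrophil markers summed to 85170 CPM beside 220800 and 263000 CPM.

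**Figure D3:**
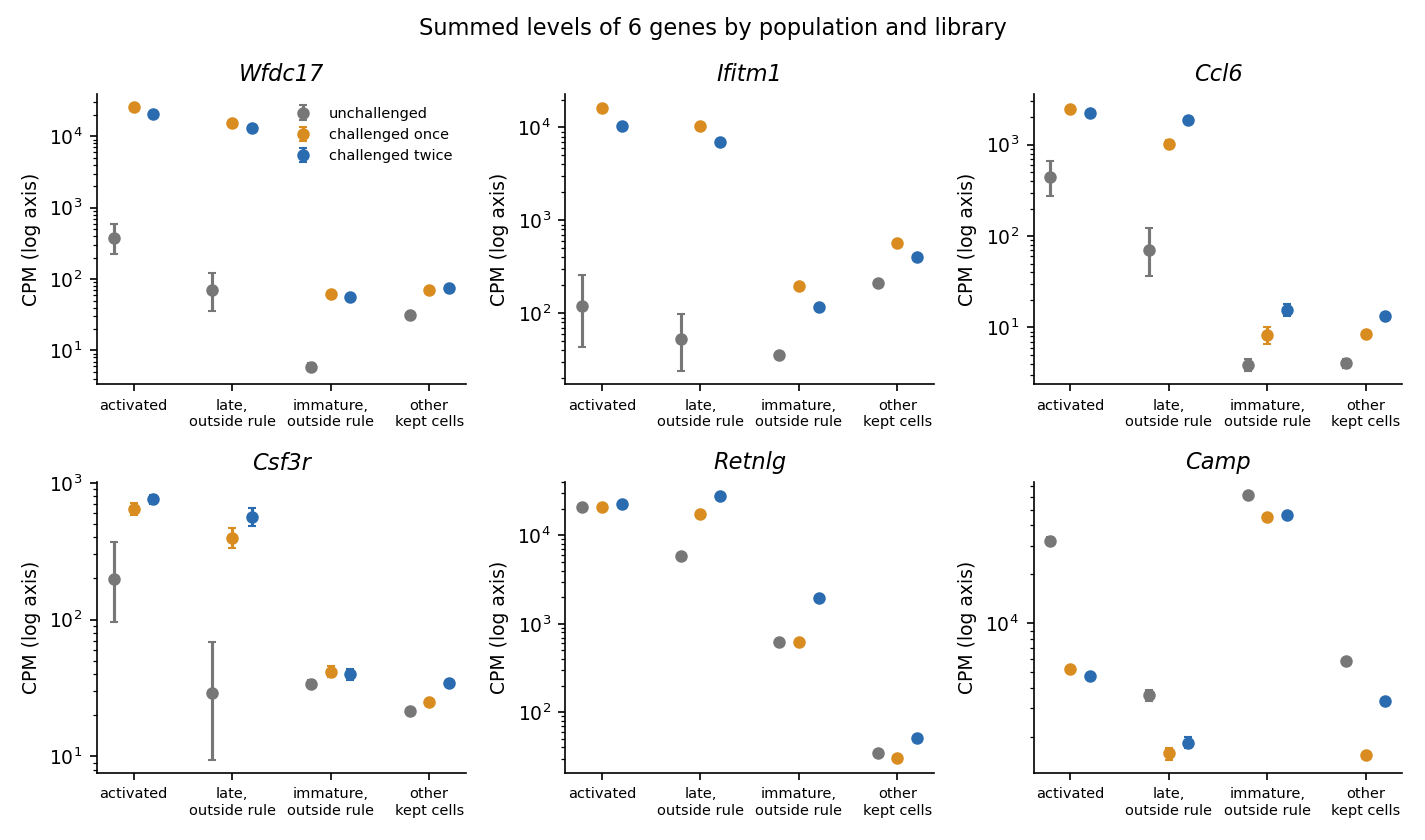
Summed levels in CPM, on log axes, of Wfdc17, Ifitm1, Ccl6, Csf3r, Retnlg and Camp in activated neutrophils, late and immature neutrophils outside the criteria and the remaining kept cells, 1 point per library with its exact Poisson 95% interval. Wfdc17 stands at 25620 and 20300 CPM in activated and at 15200 and 12920 CPM in other late neutrophils of the challenged libraries, and at 61.4 CPM or less in immature ones.

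Markers of other cell types summed to far less than the neutrophil markers in the activated neutrophils but were not absent. The 6 neutrophil markers summed to 372500, 304600 and 290000 CPM, though S100a8 and S100a9, which the criteria used, are among the genes behind these sums. The 8 monocyte markers summed to 1616 CPM (1284 to 2009), 610 CPM (549 to 675) and 670 CPM (620 to 722), with Fn1 at 0 in all 3 libraries. Dendritic cell markers summed to 19.95, 39.8 and 109 CPM, macrophage markers to 39.9, 26.5 and 45.2 CPM and T and NK cell markers, with Cd3e at 0 throughout, to 39.9, 73.0 and 106 CPM. B lineage markers, with Ms4a1 at 0 throughout, summed to 599, 469 and 97.2 CPM. Basophil and mast cell markers summed to 0, 105 and 29.5 CPM, eosinophil markers, with Epx at 0 throughout, to 0, 18.2 and 32.4 CPM, and stem and progenitor markers to 0, 128 and 80.5 CPM. Kit itself was at 0, 91.2 and 43.2 CPM, although the cells were enriched by it. The part of these other cells in the results was not tested.

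Scrublet marked 1 of 11, 9 of 215 and 17 of 375 activated neutrophils as likely pairs of cells. The marks were unevenly placed. Among activated cells with Camp and Ngp of at least 10000 per 1000000 it marked 6 of 10 in the challenged once library and 6 of 25 (24.0%) in the rechallenged library. Among those with lower Camp and Ngp it marked 3 of 205 (1.46%) and 11 of 350 (3.14%). The marked cells stayed in the values unless stated.

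Judged by specific granule genes, the activated neutrophils of the challenged libraries were mostly late cells, whereas the 11 of the unchallenged library looked earlier. Camp, the cathelicidin of specific granules, stood at 32170 CPM in the unchallenged, 5192 CPM in the challenged once and 4735 CPM in the rechallenged cells. Ngp, the neutrophilic granule protein, stood at 26900, 3542 and 3605 CPM, and Ltf, lactoferrin, at 3272, 730 and 835 CPM. The 3 genes were 6.20-fold, 7.59-fold and 4.49-fold lower in the challenged once than in the unchallenged cells, and 6.79-fold, 7.46-fold and 3.92-fold lower in the rechallenged cells. Of the UMIs of the 11 unchallenged cells, 1 cell held 59.9% for Camp, 55.9% for Ngp and 47.0% for Ltf. Per cell, Camp and Ngp together had medians of 31470, 1043 and 825 per 1000000. All 11 unchallenged cells were at or above 10000 per 1000000, while 205 of 215 (95.3%) and 350 of 375 (93.3%) of the challenged cells were below it. In the remaining kept cells these medians were 2921, 355.5 and 426.2 per 1000000, also highest in the unchallenged library. The part of transcripts released into the droplets was not tested. Retnlg, of late neutrophils, stood at 21170, 20920 and 22870 CPM in the activated cells. The comparisons with the unchallenged library therefore set 11 cells of high Camp and Ngp against cells mostly low in both. What stage, released transcripts and challenge each contribute cannot be told apart in them.

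For every gene that reached 100 UMIs over both populations compared, a ratio was taken after adding 10 CPM to both levels, and genes at least 2-fold apart were counted. In the challenged once against the unchallenged activated cells, 97 of 595 genes were higher (16.3%) and 23 lower (3.87%), with a median log2 ratio of 0.31. In the rechallenged against the unchallenged cells, 178 of 880 were higher (20.2%) and 56 lower (6.36%), with a median of 0.30. Of the higher genes, 27 and 87 had at most 3 UMIs in the unchallenged cells, 5 and 16 of them none. The unchallenged cells held 50116 UMIs in all, beside 603092 and 1018418. The minimum of 100 UMIs was therefore mostly reached through the challenged cells, and a gene high only in the unchallenged cells was harder to admit. The numbers of higher and lower genes and the medians are thus not balanced, and no direction is read from them. Scaling by the median of the gene ratios in place of the total moved the share of higher genes among those 2-fold apart from 80.8% to 60.6% and from 76.1% to 54.8%. These comparisons share the unchallenged cells and are given side by side.

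Among the specific granule genes, 9 of 13 measured members were at least 2-fold lower in the challenged once cells (median log2 ratio -1.40) and 10 of 14 in the rechallenged cells (-1.71). The immediate early and AP-1 genes, which are transcribed within minutes of a stimulus, had 6 of 9 members at least 2-fold higher (1.37) and 8 of 12 (1.14), with 0 lower in each. Of the gelatinase and late stage genes, 4 of 16 were at least 2-fold higher and 1 lower in the challenged once cells (0.65), and 2 and 1 of 16 in the rechallenged cells (0.38). Mmp8, the neutrophil collagenase, stood at 1656, 905 and 892 CPM, and Cxcr2, the receptor of Cxcl2, at 239, 655 and 450 CPM. Of the stefin A genes, which encode cystatin-like protease inhibitors, 4 of 5 and 6 of 7 were at least 2-fold higher. As 3 and 4 of them had no UMI in the unchallenged cells, their medians of 4.30 and 5.98 depend on the 10 CPM added, and with these genes set against 3 unchallenged UMIs the medians were 1.65 and 3.83. The shares of specific granule and stefin A genes lie above the 3.87% lower, 16.3% higher, 6.36% lower and 20.2% higher over all genes measured in the same comparisons.

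Wfdc17 and Ifitm1 were among the genes furthest apart. Ifitm1 encodes an interferon-inducible membrane protein that restricts virus entry. It stood at 120 CPM (43.9 to 261) in the unchallenged, 16400 CPM (16080 to 16730) in the challenged once and 10280 CPM (10090 to 10480) in the rechallenged cells, a ratio of 137 (62.9 to 373) and 85.9 (39.4 to 234). The corresponding ratios of Wfdc17 were 67.6 (43.3 to 112) and 53.6 (34.3 to 89.0). Igfbp6, an insulin-like growth factor binding protein, had no UMI in the unchallenged cells and 680 and 614 CPM in the challenged ones, at least 11.4-fold and 10.3-fold higher when set against 3 UMIs in the unchallenged cells. Stfa2l1 was at least 10.0-fold and 37.8-fold higher by the same measure. Cd14, the lipopolysaccharide co-receptor, was at least 4.63-fold and 3.10-fold higher.

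When only activated cells with Camp and Ngp of at least 10000 per 1000000 were compared, 11, 10 and 25 cells remained. This restriction was chosen after seeing the data. Wfdc17 stood at 379 CPM (228 to 592), 5706 CPM (5211 to 6234) and 2002 CPM (1795 to 2227) in them, and Ifitm1 at 120, 2958 and 1755 CPM, so both were still higher in the challenged cells. Ccl6 stood at 439, 524 and 383 CPM, and the values of Csf3r were 200, 128 and 159 CPM, so neither kept the difference seen over all activated cells. Camp stood at 32170, 33140 and 25860 CPM. Of the challenged cells, 6 of the 10 and 6 of the 25 carried the doublet mark, and they held 80.0% and 44.3% of the summed UMIs. The part of the marked cells in these values was not tested.

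Other members of the interleukin 1 system and the chemokines had few UMIs, and those below 100 over a pair fall outside the rule for named genes and were chosen after their values were seen. Il1a, the sister cytokine, and Cxcl1, a close relative of Cxcl2, had no UMI in any of the 601 cells, which at 3 UMIs allows up to 59.9, 4.97 and 2.95 CPM. Il1r2, the decoy receptor that binds interleukin 1 without signalling, stood at 180 CPM (82.1 to 341), 459 CPM (407 to 517) and 272 CPM (241 to 306), and Il1rn, the receptor antagonist, at 79.8, 73.0 and 50.1 CPM. Nlrp3, the sensor of the inflammasome that cleaves the interleukin 1 beta precursor, stood at 0, 28.2 (16.4 to 45.1) and 52.0 CPM (39.0 to 68.1). Ccl3 stood at 19.95, 21.6 (11.5 to 36.9) and 71.7 CPM (56.2 to 90.1), Ccl4 at 0, 136 (108 to 169) and 75.6 CPM (59.7 to 94.5), and Cxcl3 at 0, 1.66 and 20.6 CPM (12.8 to 31.5). The 82 and 77 UMIs of Ccl4 lay in 21 and 24 cells. Tnf stood at 0, 14.9 and 8.84 CPM.

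The rechallenged and challenged once activated neutrophils were closer to each other in Camp and Ngp, and both were mostly late cells. Of 1310 genes, 39 were at least 2-fold higher in the rechallenged cells (2.98%) and 23 lower (1.76%), with a median log2 ratio of -0.02. Of the 39, 6 belonged to the stefin A cluster and 13 (33.3%) were ribosomal protein or mitochondrial genes, which made up 6.72% of the 1310. The median mitochondrial share per cell was 0.425% in the challenged once and 1.06% in the rechallenged activated cells, 0.518% and 1.25% in other late neutrophils and 2.73% and 4.39% in the remaining kept cells, and its part in these differences was not tested. The marker genes that the criteria did not use had small ratios, with Wfdc17 1.26-fold and Ccl6 1.10-fold lower and Csf3r 1.17-fold higher in the rechallenged cells.

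The stefin A genes lie side by side on chromosome 16, from the start of Stfa2l1 at 36156811 to the end of Stfa3 at 36455392. They are close copies of each other, so the counts of single members are uncertain. Stfa2 stood at 58.0 CPM in the challenged once and 621 CPM in the rechallenged cells, a ratio of 10.7 (7.61 to 15.5). BC100530 stood at 187 and 1147 CPM, Stfa3 at 69.6 and 416 CPM, Stfa2l1 at 600 and 2263 CPM, Gm5483 at 1197 and 4476 CPM and Stfa1 at 363 and 1018 CPM. These 6 of the 7 measured members were at least 2-fold higher, against 2.98% of all genes, and the 7th, Cstb, the related stefin B gene, was lower at 232 and 152 CPM. The stefin UMIs of the challenged once cells sat in few cells: BC100530 was found in 10 cells, with 58.4% of its UMIs in 1 of them, and Stfa1 in 15 cells, with 25.1% in 1. They were found in 65 and 66 rechallenged cells, and Stfa2l1 was found in 72 and 269 cells. Outside the activated cells, Stfa2l1 stood at 297 and 1571 CPM in other late neutrophils, at 17.6 and 128 CPM in immature neutrophils and at 0.506 and 4.18 CPM in the remaining kept cells. Stfa2 stood at 20.4 and 485 CPM, at 4.75 and 85.0 CPM and, with 1 and 90 UMIs, at 0.00815 and 1.11 CPM, so these genes were higher in the rechallenged library in all 4 populations.

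G0s2, an inhibitor of the lipase that breaks down stored fat, stood at 391 CPM in the challenged once and 2102 CPM in the rechallenged cells, a ratio of 5.37 (4.69 to 6.17). Pim1, a survival kinase induced by cytokine receptors, stood at 103 and 490 CPM, a ratio of 4.77 (3.66 to 6.31). Both were also higher in late neutrophils outside the criteria, G0s2 at 163 and 1160 CPM and Pim1 at 69.8 and 411 CPM. In immature neutrophils G0s2 stood at 152 and 186 CPM and Pim1 at 42.9 and 41.0 CPM, and in the remaining kept cells at 24.7 and 41.5 CPM and at 92.2 and 89.5 CPM. Mcl1, which keeps neutrophils alive, stood at 512 CPM (457 to 573) and 868 CPM (812 to 927) in activated cells, a 1.69-fold ratio that did not reach 2-fold. Egr1, an immediate early transcription factor, stood at 126 and 356 CPM.

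Interferon-responsive genes were lower in the rechallenged activated neutrophils. Of 11 measured members, 0 were at least 2-fold higher and 4 at least 2-fold lower, against 1.76% lower over all genes, and the median log2 ratio was -0.74. Irf7, the transcription factor that amplifies the type I interferon response, stood at 204 CPM in the challenged once and 37.3 CPM in the rechallenged cells, 5.47-fold lower. Ifi27l2a stood at 3713 and 1594 CPM, Ifit1 at 116 and 46.2 CPM and Slfn2 at 788 and 368 CPM. The 4 Ifitm genes were all lower, with a median of -0.66 and none at 2-fold. The 7 measured genes of MHC class I and peptide loading, which are also under interferon control, were all lower, with a median of -0.67, and H2-T23 alone passed 2-fold, at 264 and 77.6 CPM. The class I heavy chain gene H2-D1 stood at 2432 CPM (2310 to 2560) and 1344 CPM (1274 to 1417), with 1317 CPM (1019 to 1675) in the unchallenged cells. Summed over the activated cells, the interferon list stood at 3592 CPM in the unchallenged, 7448 CPM in the challenged once and 3614 CPM in the rechallenged library. The unchallenged sum rests on 180 UMIs of 11 cells that were higher in Camp and Ngp, so it is no matched baseline. Ifi27l2a alone gave 72 of these 180 UMIs, 2239 of 4492 in the challenged once and 1623 of 3681 in the rechallenged library.

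The interferon difference was also present outside the activated neutrophils. From the challenged once to the rechallenged library, Irf7 stood at 151 and 22.6 CPM in other late neutrophils, at 45.2 and 2.73 CPM in immature neutrophils and at 45.6 and 4.23 CPM in the remaining kept cells, lower in each. H2-T23 stood at 177 and 107 CPM, at 86.3 and 17.5 CPM and at 97.3 and 25.2 CPM in the same populations, and Ifi27l2a at 2279 and 1849 CPM, at 712 and 68.3 CPM and at 236 and 52.9 CPM. Lower levels of these genes in the rechallenged library were thus found in all 4 populations.

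**Figure D4:**
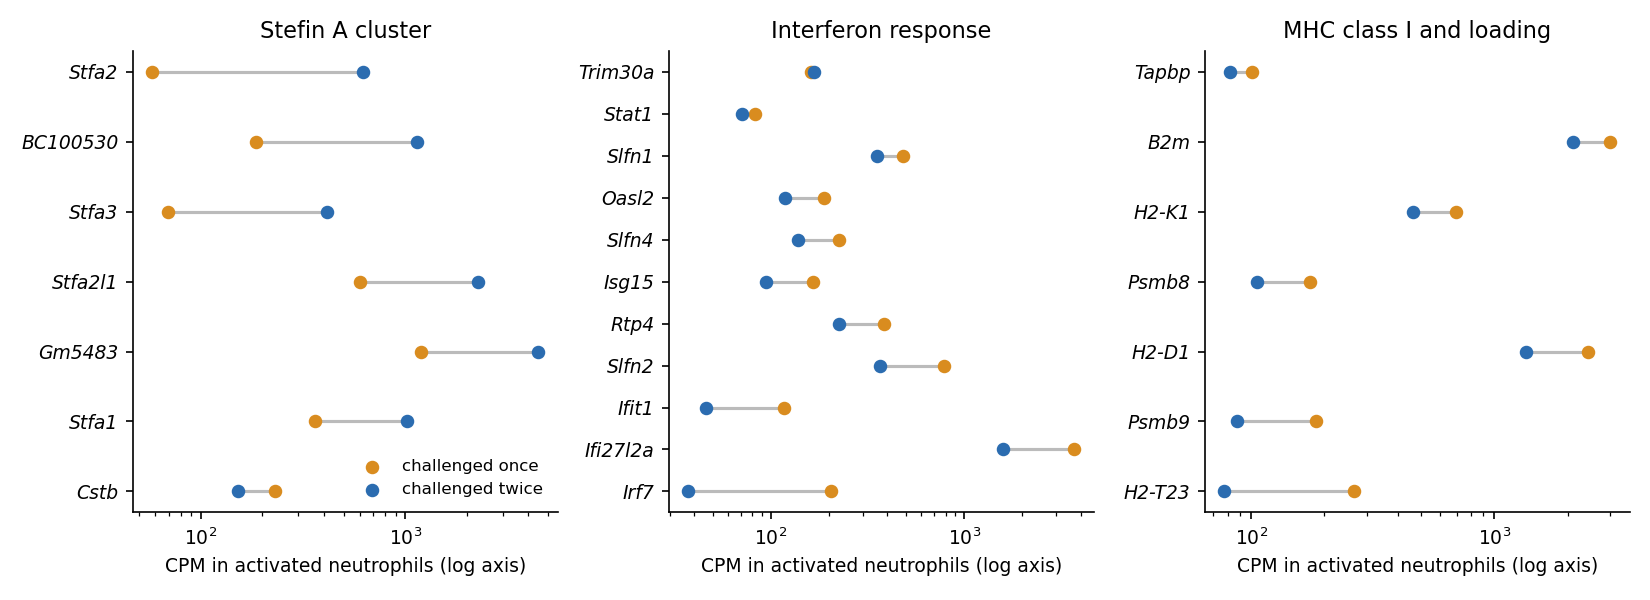
Levels in CPM, on log axes, of the measured stefin A, interferon response and MHC class I genes in the activated neutrophils of both challenged libraries, 1 point per library joined by a line for each gene. The rechallenged point lies to the right for 6 of the 7 stefin genes, as for Stfa2 at 621 beside 58.0 CPM, and to the left for 10 of the 11 interferon genes, as for Irf7 at 37.3 beside 204 CPM, and for all 7 MHC class I genes.

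Signalling feedback genes were mixed. Nfkbia stood at 401 CPM (352 to 455) in the challenged once and 181 CPM (156 to 209) in the rechallenged activated cells, 2.22-fold lower, with 359 CPM (213 to 568) in the unchallenged cells. It was also lower in the rechallenged library outside the activated cells, from 212 to 155 CPM in other late neutrophils. In immature neutrophils Nfkbia went from 187 to 77.6 CPM, and in the remaining kept cells from 75.9 to 51.0 CPM. Jun, an AP-1 subunit, stood at 197 and 66.8 CPM, and Socs3, which limits cytokine receptor signalling, at 101 and 41.2 CPM. Nfkbiz, another NF-kB target, stood at 68.0 CPM (48.8 to 92.2) and 108 CPM (88.8 to 130), and Tnfaip2 at 158 and 314 CPM. Tsc22d3, a gene induced by glucocorticoids, stood at 416 and 158 CPM. Over the 13 measured immediate early and AP-1 genes, 1 was at least 2-fold higher and 1 lower, with a median of 0.10. The respiratory chain genes were slightly higher in 17 of 20 members, with a median of 0.31 and none at 2-fold. Single cells decided some genes: the 36 UMIs of Ebf1, a B lineage factor, in the rechallenged activated cells all came from 1 cell, and 24 of its 87 in the challenged once cells came from 1 cell, for levels of 35.4 and 144 CPM.

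Within each challenged library, activated neutrophils were set against the late neutrophils outside the criteria, which differ from them by the Il1b and Cxcl2 count and by the limit on Camp and Ngp. In the challenged once library, 31 of 870 genes were at least 2-fold higher in activated cells (3.56%) and 151 lower (17.4%). In the rechallenged library, 6 of 1090 were higher (0.55%) and 4 lower (0.367%). The other late cells there held a median of 1 UMI of Il1b and Cxcl2, so many lay close to the threshold. Against only those with 0 UMIs, 55 of 994 genes were higher and 105 lower in the rechallenged library. In the challenged once library 53 of 708 were higher and 136 lower in that setting. The part of doublets in these counts was not tested. The count of 182 genes apart in the challenged once library, with all other late cells, rested on a few deep cells among them. The deepest 9 of the 90 other late cells held 46.6% of their UMIs, and 7 of the 90 carried the doublet mark and held 43.4%. Without the marked cells, 11 of 621 genes were 2-fold apart in place of 182 of 870, and 10 of the 11 were among the 182. In the rechallenged library the deepest 11 of 112 held 38.5% of the UMIs and 6 marked cells 30.3%. The limit on Camp and Ngp was set on the other late cells alone, and specific granule genes such as Camp stood higher in the activated cells. With the same limit set on both sides, Camp was lower in the activated cells of both libraries.

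Immediate early genes stood higher in the activated cells in both libraries. In the challenged once library all 12 measured members were higher and 8 at least 2-fold, against 3.56% of all genes, with a median log2 ratio of 1.12. Without the doublet-marked cells 11 of 12 were higher and 4 at least 2-fold, with a median of 0.73. Over all genes measured without those cells, 10 of 621 were at least 2-fold higher. The 12 members stayed those measured with all cells. In the rechallenged library 10 of 12 were higher and 0 at least 2-fold, with a median of 0.64, and 9 of 12 and 0.42 without marked cells. Fos, an AP-1 subunit, stood at 985 CPM in activated and 302 CPM in other late cells of the challenged once library, and at 1058 and 588 CPM in the rechallenged library. Its log2 ratios of 1.67 and 0.84 became 1.24 and 0.63 without marked cells. Btg2, an immediate early inhibitor of proliferation, stood at 393 and 98.8 CPM and at 332 and 171 CPM, with log2 ratios of 1.89 and 0.92 that became 1.54 and 0.80. Junb stood at 1046 and 282 CPM and at 741 and 472 CPM, with ratios of 1.86 and 0.64 that became 1.35 and 0.39. The excess was thus larger in the challenged once library both with and without marked cells, a difference that was not tested.

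**Figure D5:**
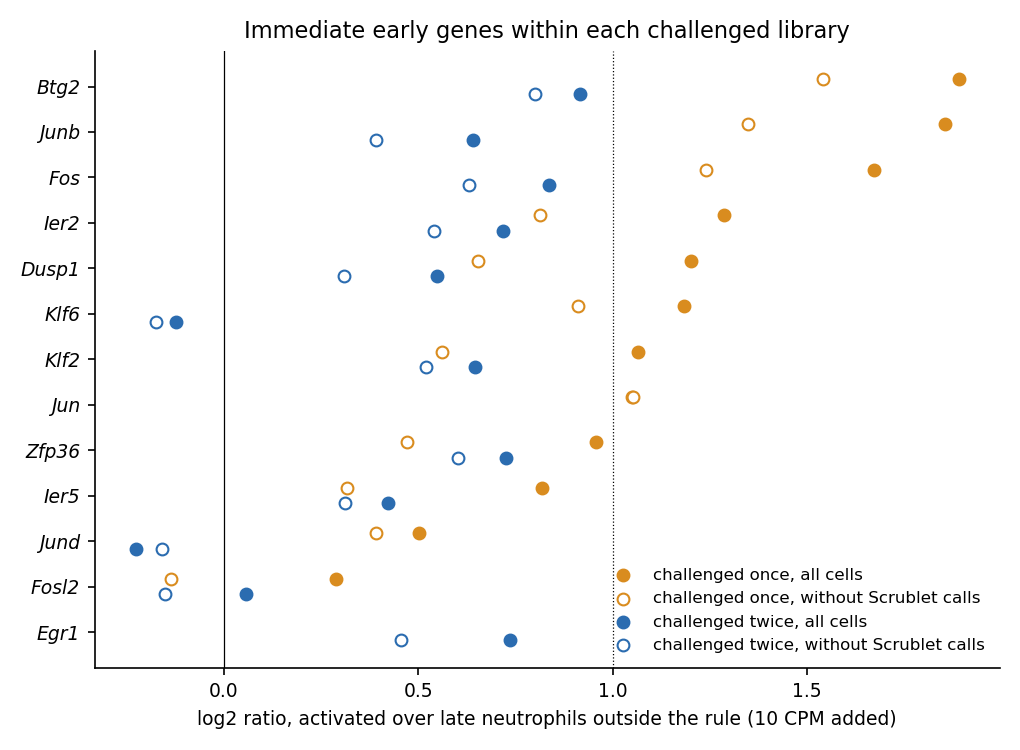
Log2 ratio, with 10 CPM added, of activated neutrophils over late neutrophils outside the criteria for the measured immediate early and AP-1 genes in both challenged libraries, filled for all cells and open without the cells marked by Scrublet, with the dotted line at 2-fold. All 12 genes of the challenged once library and 10 of the 12 of the rechallenged library lie above 0 with all cells.

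Outside that list, Cd14 stood more than 2-fold higher in both libraries, at 277 CPM in activated and 72.7 CPM in other late cells of the challenged once library and at 186 and 71.1 CPM in the rechallenged library. Its log2 ratios of 1.80 and 1.27 became 1.26 and 1.13 without marked cells. Osm, a cytokine of the interleukin 6 family, stood at 249 and 102 CPM and at 163 and 87.3 CPM. Ccl6 had log2 ratios of 1.27 and 0.26, which became 0.72 and 0.02 without marked cells, and Wfdc17 had 0.75 and 0.65, which became 0.17 and 0.39. In the rechallenged library Ccl6 and Wfdc17 therefore separated activated cells by little from other late neutrophils, which held up to 2 UMIs of Il1b and Cxcl2. Without marked cells, Wfdc17 separated them by little in the challenged once library too.

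Activated neutrophils with Cxcl2 alone differed from those with Il1b in the rechallenged library. Wfdc17 stood at 22180 CPM in the 117 cells with at least 3 UMIs of Il1b alone, at 13390 CPM in the 82 cells with Cxcl2 alone and at 22820 CPM in the 158 cells with both. Csf3r stood at 938, 469 and 839 CPM, Ccl6 at 2585, 1469 and 2571 CPM, Fos at 1230, 690 and 1195 CPM and Egr1 at 452, 179 and 427 CPM. The specific granule gene Camp ran the other way at 3742, 9433 and 2459 CPM, as did Mmp8 at 592, 1438 and 666 CPM. Of the 82 cells with Cxcl2 alone, 19 had Camp and Ngp of at least 10000 per 1000000, against 3 of the 117 and 2 of the 158. Without those cells, a restriction chosen after seeing the data, Camp stood at 561, 552 and 458 CPM. The restriction removes cells by their Camp and Ngp, so these Camp values cannot show whether an excess remains. Mmp8, which the restriction did not use, stood at 651 CPM (551 to 762.5), 777 CPM (656 to 915) and 727 CPM (646 to 816). It was highest in the cells with Cxcl2 alone, with overlapping intervals. Wfdc17 then stood at 23930, 19970 and 24800 CPM, Csf3r at 1010, 643 and 909 CPM, Fos at 1335, 917 and 1296 CPM and Egr1 at 475, 263 and 461 CPM, each still lowest in the cells with Cxcl2 alone. Over all cells, the median depth was 2519 UMIs with Cxcl2 alone, beside 1726 in the cells with Il1b alone and 2140 in those with both.

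In the challenged once library the same subsets held 55, 84 and 65 cells. Wfdc17 stood at 28660 CPM with Il1b alone, 23780 CPM with Cxcl2 alone and 28510 CPM with both. Csf3r stood at 868, 546 and 682 CPM, Fos at 1244, 845 and 1121 CPM and Cd14 at 352, 171 and 394 CPM, each lowest in the cells with Cxcl2 alone. Camp stood at 3105, 6370 and 4934 CPM, and at 684, 574 and 477 CPM without the 3, 4 and 2 cells of high Camp and Ngp. Without those cells Wfdc17 stood at 30850, 28940 and 29760 CPM. Mmp8 then stood at 675 CPM (533 to 844), 1332 CPM (1179 to 1500) and 886.5 CPM (747 to 1044), highest in the cells with Cxcl2 alone. Ccl6, at 2276, 2255 and 3317 CPM, was highest in the cells with both. The subsets were formed from the counts of Il1b and Cxcl2 and rest on 1 library each, so whether they would differ between animals was not tested.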

How the data were processed

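The authors deposited UMI counts per gene and cell barcode for 3 libraries, made with Cell Ranger 3.0.0 and mm10 per the submitters' processing notes; filters before deposit are not given in the sources used here. The counts were whole numbers for 31053 genes, and the smallest barcode total was 500.

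Barcodes were kept from 500 UMIs and 300 genes upward when their mitochondrial share did not exceed 10%. UMIs were summed per population and library. Log2 ratios were taken after adding 10 CPM, for genes reaching 100 UMIs in both populations together. Doublets were called with Scrublet in scanpy 1.11.5 at an expected rate of 6%; called cells were kept, and leaving them out was an alternative. Work used numpy 2.4.6, scipy 1.17.1, pandas 2.3.3, anndata 0.12.19 and matplotlib 3.10.9, and the ratios were checked on simulated data. The cells, the 27 program and 11 marker lists (449 genes, 2 not used here) and the 17 genes always named were chosen with earlier results of these data known. The rule for named genes also takes the 10 highest and 5 lowest genes of activated against other late cells, the 8 highest and lowest between libraries, and up to 4 genes per list. A gene that these rules took and a marker list are not reported here. Where the series' design text (2 samples, another agent) and the sample labels disagree, the labels were used.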

Additional observations from a re-analysis of the deposited data

How the results depend on the processing

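No paired analysis was possible because each group is 1 library. Depth limits the unchallenged values most, since 1 UMI there is 19.95 CPM and 3 UMIs are 59.9 CPM, and every comparison rests on single libraries. Of 54 values of the shares under other settings, 36 stayed within the counting interval, and of 54 gene counts, 28 stayed within 1.5 times. The restrictions of activated cells to high or low Camp and Ngp, other than against late cells, were chosen after seeing the data. The causes of the moves were not tested.

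The shares of kept cells and of S100-high cells moved as follows. With a minimum of 5 UMIs they were 0.0542% and 0.124% unchallenged, 1.90% and 11.3% challenged once, and 3.48% and 16.0% rechallenged. Thinned to 1000 UMIs they were 0.0332% and 0.0777%, 1.35% and 8.17%, and 2.71% and 12.6%. A minimum of 1000 per 1000000 gave 0.0434% and 0.0990% unchallenged, a minimum of 2 UMIs gave 5.02% and 23.1% rechallenged, and a filter of 1000 UMIs and 500 genes gave 3.76% and 17.7% rechallenged.

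The number of genes 2-fold apart moved with several settings. Challenged once against unchallenged, 120 genes became 671 at 20 UMIs, 42 at 300 UMIs, 55 after thinning and 74 among cells with high Camp and Ngp. Rechallenged against unchallenged, 234 became 1189, 99, 98 and 67 under the same settings. Rechallenged against challenged once, 62 became 179 at 20 UMIs, 34 at 300 UMIs, 39 after thinning and 35 with 50 CPM added, and the share higher went from 62.9% to 48.0% at 20 UMIs. Activated against other late cells in the challenged once library, 182 became 677 at 20 UMIs, 98 at 300 UMIs, 11 without doublet calls, 22 as a mean of per-cell levels, 8 after thinning and 836 with other cells up to 30000 per 1000000 of Camp and Ngp. In the rechallenged library, 10 became 16 with 1 CPM and 5 with 50 CPM added, 112 at 20 UMIs, 5 at 300 UMIs, 3 after thinning, 303 with other cells up to 30000 per 1000000, 33 with activated cells under 10000 per 1000000 and 160 with other cells holding 0 UMIs.

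Some log2 ratios changed sign. Among list medians, survival and death became -0.038 at 20 UMIs and immune checkpoint -0.094 with a minimum of 5 UMIs, challenged once against unchallenged, where acute phase became -0.16 among cells with high Camp and Ngp. Rechallenged against unchallenged, immune checkpoint became -0.32 at 300 UMIs, -0.58 after thinning and -0.013 with a minimum of 5 UMIs. Heat shock, activated against other late cells of the challenged once library, became 0.20 without doublet calls, as did Hsp90ab1 at 0.16 and Ran at 0.21, and Mt1 became 0.32 as a mean of per-cell levels. Among cells with high Camp and Ngp, challenged once against unchallenged, Camp became 0.043, Ifi27l2a -0.50 and Ltf 0.53. Rechallenged against unchallenged, Cebpb became -0.11, Cybb 0.43, Ifitm2 -0.021, Ltf 0.52 and Slpi -0.14. Against other late cells up to 30000 per 1000000, Camp became -0.57 and Chil3 -0.60 in the challenged once library, and Camp -1.004, Chil3 -0.87, Ltf -1.25 and Ngp -1.11 in the rechallenged library. With activated cells under 10000 per 1000000, Camp became -1.50 and Chil3 -1.27 in the challenged once library, and Camp -1.84, Ltf -1.72 and Ngp -1.66 in the rechallenged library. The other 3920 gene settings and 917 list settings stayed the same, and 401 and 387 moved without changing sign.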
